A study of Mus musculus with 60 samples.

Results

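RNA of MCM2-2A mESCs was compared after 96 h with dTAG, added to deplete POLE4, or with DMSO. The 6 libraries, of 60 in the series, were those whose labels give the MCM2-2A line with dTAG (dPOLE4 MCM2-2A, n = 3) or DMSO (Ctrl MCM2-2A, n = 3) for 96 h, with no retinoic acid. The cells were mouse embryonic stem cells of the E14JU line on a 129/Ola background, grown in serum with LIF. Both groups carried the histone-binding mutation of MCM2 and a degron tag on POLE4, so the controls were mutant too, and what differed was 1 uM dTAG in place of its solvent. The line was a single clone (clone 2 in the labels), and each library came from its own culture of that clone, so p-values measure spread within 1 clone. With the replicate number as a block, this is the spread of the dTAG against DMSO differences among pairs of the same number. Without the block it is the spread between cultures. RNA was total RNA depleted of ribosomal RNA and sequenced as strand-specific paired reads. The deposited values were unnormalized counts of reads for 55487 genes and 1146 repeat subfamilies, of which 17421 (16584 genes and 837 repeat subfamilies) had enough reads to be tested.

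When a replication fork passes, the parental histones of the nucleosomes ahead of it are handed on to the new DNA strands. MCM2, a subunit of the replicative helicase, passes them to the lagging strand, while POLE3 and POLE4, small subunits of DNA polymerase epsilon, pass them to the leading strand. The MCM2 mutation, which impairs the first route, was present in both groups of this comparison, and dTAG was added to impair the second. Mouse embryonic stem cell cultures are known to hold a small, changing number of cells that resemble the 2-cell embryo and express Zscan4 genes and the retrovirus MERVL, besides cells that approach formative pluripotency, the state that precedes lineage choice.

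Library totals ranged from 7126100 to 19023308 counts in Ctrl MCM2-2A and from 11517180 to 16879010 in dPOLE4 MCM2-2A, the lowest being Ctrl replicate 1. All 10 embryonic stem cell markers were detected and none was differentially expressed (DE), although 8 of the 10 were lower. Pou5f1 was at 840 ± 31.6 CPM (counts scaled to a common library total, SD, n = 3) in Ctrl and 812 ± 54.4 in dPOLE4 MCM2-2A. Lin28a had the largest difference among them, a log2 fold change of -0.45 (edgeR, adjusted p = 2.18e-08), which did not reach the fold cutoff. Pole4 RNA was at 29.2, 26.5 and 26.6 CPM in Ctrl and 28.5, 27.3 and 27.2 CPM after dTAG (log2 fold change 0.02; edgeR, adjusted p = 0.909). dTAG removes the protein and not the RNA, so that this value checks neither the depletion nor the labels. Mcm2 RNA differed by -0.04 on the log2 scale (edgeR, adjusted p = 0.652).

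After 96 h with dTAG, 218 features were higher and 89 lower than with DMSO in the MCM2-2A line, or 1.25% and 0.511% of those tested (1.76% in all). Calls of DE rest on edgeR's quasi-likelihood test with the replicate number as a block, at an adjusted p under 0.01 and a change of more than 0.58 on the log2 scale in either direction. The median log2 fold change over all features was -0.00032, and 93.6% of them lay within 0.58 of 0. Without the block, 53 features were called (34 up, 0.195%, and 19 down, 0.109%, or 0.304% in all), and DESeq2 without a block called 125 (90 up, 0.517%, and 35 down, 0.201%, or 0.718% in all). Of the 307 features, 161 (120 up and 41 down) were called with each replicate number left out in turn, and 51 (32 up and 19 down) were called by both tools with and without the block. The median SE of a log2 fold change was 0.106. In a simulation of 17113 features with assumed replicate effects, the same procedure called 87% of those changed 2-fold. These effects were shared by Ctrl and dPOLE4 libraries of the same number, so the simulation cannot judge the choice of the block. The changed features were drawn from those with at least 10 expected counts in the smallest library, so features with fewer counts were not covered. Of all features tested, 16.9% had no overlap between the 3 Ctrl and the 3 dPOLE4 libraries (9.22% higher and 7.67% lower).

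The raised genes were led by the 2-cell-like group, a list chosen, like the others, with earlier results of these data known. Of 30 listed genes of this group in the file, 25 passed the filter on low counts, and 20 of them were DE and higher in dPOLE4 MCM2-2A. All 25 had a higher mean, with log2 fold changes from 0.53 to 2.07 and a median of 1.27. Tdpoz1, Tdpoz2, Tdpoz5, AF067063 and Tcstv1 had too few counts to be tested. A gene can pass the filter through the group in which it is high, so the 19 genes with at least 10 counts in every library were also counted, and 17 of these were DE. Without the block 8 of the 25 were DE, and with DESeq2 without the block 16 were. In a bulk sample, more cells of a type and more RNA per cell cannot be told apart.

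Zscan4c, a zinc finger gene of the 2-cell embryo, was at 16.9, 9.82 and 15.7 CPM in Ctrl and at 49.4, 32.4 and 33.1 CPM in dPOLE4 MCM2-2A. The groups did not overlap, and the log2 fold change was 1.42 ± 0.097 (SE; edgeR, adjusted p = 1.79e-10, and 0.0123 without the block). In both groups replicate 1 was the highest library. The other listed genes of the family also rose, with log2 fold changes of 1.32 for Zscan4a, 1.18 for Zscan4b, 1.15 for Zscan4d, 1.27 for Zscan4e and 1.25 for Zscan4f, and each was called with every replicate number left out. The 9 Zscan4 genes and pseudogenes lie in 1 array on chromosome 7 and share sequence: between 23.4% (Zscan4-ps1) and 81.5% (Zscan4e) of the 100-base windows of their exons occur in another gene, and how reads of such windows were assigned is not given in the sources used here. Their summed level does not depend on that split among members. It was 123, 72.7 and 90.0 CPM in Ctrl and 273, 190 and 212 CPM in dPOLE4 MCM2-2A, 2.36 times higher on average.

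The promoters of 3 Zscan4 genes show how alike the members are. Each line gives the 250 bases before the RefSeq transcription start (GRCm38.p6), 5′ to 3′ on the strand of the gene, with the letters TATAAA in capitals.
Zscan4c (chr7:11005495-11005744, plus strand): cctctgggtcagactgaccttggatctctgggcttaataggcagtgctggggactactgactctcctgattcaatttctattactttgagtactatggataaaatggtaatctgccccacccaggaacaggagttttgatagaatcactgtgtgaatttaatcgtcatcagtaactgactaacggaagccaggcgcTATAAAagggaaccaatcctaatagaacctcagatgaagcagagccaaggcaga
Zscan4d (chr7:11166149-11166398, minus strand): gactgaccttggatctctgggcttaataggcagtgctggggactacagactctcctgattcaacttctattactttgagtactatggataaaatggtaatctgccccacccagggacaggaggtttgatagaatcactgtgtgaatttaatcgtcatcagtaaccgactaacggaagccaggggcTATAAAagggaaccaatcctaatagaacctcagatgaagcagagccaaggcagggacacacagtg
Zscan4f (chr7:11397665-11397914, plus strand): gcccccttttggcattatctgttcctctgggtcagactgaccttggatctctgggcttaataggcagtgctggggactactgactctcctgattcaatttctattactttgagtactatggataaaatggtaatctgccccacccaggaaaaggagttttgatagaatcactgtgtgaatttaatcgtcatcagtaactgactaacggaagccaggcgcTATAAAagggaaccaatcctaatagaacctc

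Over the aligned part, Zscan4c and Zscan4d shared 97.1% of 239 positions, Zscan4c and Zscan4f 99.6% of 227, and Zscan4d and Zscan4f 96.8% of 216. Each of the 3 holds TATAAA once, searched on both strands, against 12.4% of 32817 RefSeq promoters of this length with at least one match. A match of letters is a description and does not show binding of a factor.

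The Usp17l genes, which encode deubiquitinating enzymes, rose with them. Usp17le was at 15.1, 13.1 and 11.95 CPM in Ctrl and at 41.6, 39.5 and 33.6 CPM in dPOLE4 MCM2-2A. The log2 fold change was 1.52 ± 0.081 (edgeR, adjusted p = 1.62e-12), and it remained called without the block (adjusted p = 0.00159). All 5 Usp17l genes were DE, with log2 fold changes of 1.53 for Usp17la, 1.34 for Usp17lb, 1.11 for Usp17lc and 1.68 for Usp17ld. They share less sequence with other genes than Zscan4 does, with 3.83% to 39.5% of windows shared. Summed over the 5 genes, the level was 38.7, 32.5 and 30.1 CPM in Ctrl and 98.3, 93.6 and 80.1 CPM in dPOLE4 MCM2-2A, 2.68 times higher.

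Duxf3, the annotated copy of Dux, encodes a transcription factor that activates the genes of the 2-cell stage. It was at 0.855, 1.00 and 0.531 CPM in Ctrl and at 2.60, 2.78 and 3.08 CPM in dPOLE4 MCM2-2A (log2 fold change 1.86 ± 0.309; edgeR, adjusted p = 0.00016, and 0.0164 without the block). Tmem92, a transmembrane protein gene expressed in these cells, rose from 5.41, 4.13 and 4.94 CPM to 10.5, 11.5 and 14.8 CPM (log2 fold change 1.40 ± 0.139; edgeR, adjusted p = 1.05e-07). Both had groups that did not overlap. Tcstv3, of another 2-cell family, was near the floor in Ctrl with 3, 6 and 15 counts, and had 47, 31 and 29 counts in dPOLE4 MCM2-2A. Among the listed genes that were not DE, Sp110 had a log2 fold change of 0.68 (edgeR, adjusted p = 0.0148) and Gm2022 one of 0.53 (adjusted p = 0.181), with overlapping groups for Gm2022.

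MERVL, the endogenous retrovirus whose long terminal repeat MT2_Mm drives many 2-cell transcripts, rose as well. MERVL-int, its internal part, was at 1094, 885 and 858 CPM in Ctrl and at 2114, 1816 and 1754 CPM in dPOLE4 MCM2-2A. The log2 fold change was 1.01 ± 0.038 (edgeR, adjusted p = 1.86e-15, and 0.00251 without the block), the lowest adjusted p of any feature. MT2_Mm was at 272, 196 and 207 CPM in Ctrl and at 515, 388 and 390 CPM in dPOLE4 MCM2-2A (log2 fold change 0.94 ± 0.041; edgeR, adjusted p = 3.04e-14, and 0.0132 without the block). The other 6 MERVL and MT2 subfamilies in the list were not DE, with log2 fold changes between 0.09 for MT2B and 0.34 for MT2C_Mm. Without these 6, MERVL-int and MT2_Mm together took 0.116 ± 0.0164% of counts in Ctrl and 0.234 ± 0.0260% in dPOLE4 MCM2-2A. A two-sided exact permutation test gave p = 0.1, the smallest p that 3 against 3 libraries allow.

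**Figure D1:**
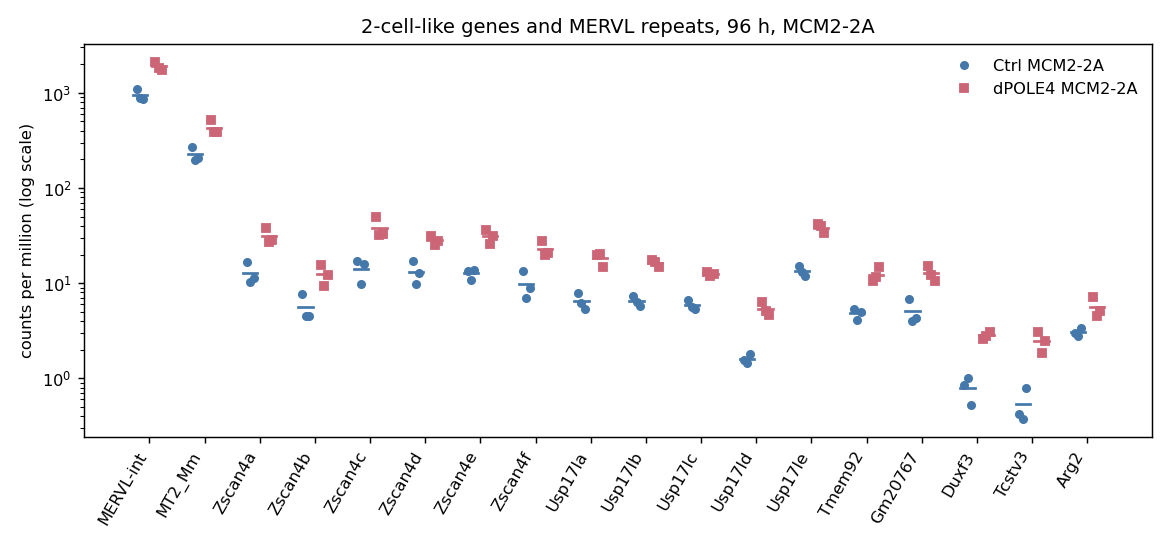
CPM (log scale) of 2-cell-like genes, MERVL-int and MT2_Mm in each of the 3 Ctrl MCM2-2A and 3 dPOLE4 MCM2-2A libraries at 96 h, with 1 point per library. For MERVL-int the Ctrl libraries lie between 858 and 1094 and the dPOLE4 libraries between 1754 and 2114.

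Some raised genes were neighbours of each other. Of 211 raised genes with a position, 73 started within 200 kb of another raised gene. The same held for 13 of 88 lowered genes and another lowered gene. How often equally many tested genes of any kind lie this close was not counted. Besides the Zscan4 array, a run on chromosome 12 (87480108 to 88324026 of GRCm38) held Gm18983, Gm8300, Gm4027, Gm1995, Gm2016, Gm8332, Gm5662, Gm7104 and Gm5039. A run on chromosome 13 (119912095 to 120318178) held Gm21761, B020031M17Rik, Gm20767, Gm21818, AF067061 and Tcstv3. On chromosome 11, Tmem92 lay beside Gm11546, AA623943 and Gm11543 (94777217 to 94828930). These neighbours were picked out after their values were seen, and genes of such arrays can share reads: of 208 raised genes that could be examined, 22 had over 50% of their 100-base windows in another gene, and 117 had none.

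The Pramel family, leucine-rich repeat genes in tandem arrays expressed in germ cells and early embryos, had 46 members in the file, of which 16 passed the filter. Of these, 6 were DE and all 16 had a higher mean, with a median log2 fold change of 0.77. With at least 10 counts in every library, 9 members remained, 2 of them DE, with a median of 0.32, and without replicate 3 the median of those tested was 1.15. Without the block 1 of the 16 was called, and DESeq2 without the block called 3. Gm12794, which RefSeq names Pramel19, was at 5.70, 4.82 and 4.46 CPM in Ctrl and at 15.7, 13.5 and 14.2 CPM in dPOLE4 MCM2-2A (log2 fold change 1.55 ± 0.126; edgeR, adjusted p = 4.19e-09, and 0.00232 without the block). Pramef8, a member with more reads, was at 72.2, 54.7 and 56.2 CPM in Ctrl and at 87.6, 64.1 and 72.5 CPM in dPOLE4 MCM2-2A, so the groups overlapped, and its log2 fold change was 0.29. The naive-state members Pramel6 and Pramel7 had log2 fold changes of 0.59 and 0.51, neither DE. Summed over the family, the level was 1.34 times higher.

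Of 17 germline genes tested, 8 were DE and higher, 16 had a higher mean, and the median log2 fold change was 0.51. Taf7l, a germ cell subunit of the TFIID complex, was at 9.83, 7.01 and 7.39 CPM in Ctrl and at 21.7, 15.5 and 12.8 CPM in dPOLE4 MCM2-2A (log2 fold change 1.02 ± 0.114; edgeR, adjusted p = 7.1e-07). Brdt, a testis bromodomain protein gene, had a log2 fold change of 0.77, Sohlh2, a germ cell transcription factor gene, one of 0.63, and Tex19.1, which restrains retrotransposons in germ cells, one of 0.59. Tex101 was the member with a lower mean, at -0.50 (edgeR, adjusted p = 0.113). None of the 8 was called without the block, where Taf7l had an adjusted p of 0.0418, and 2 were called by DESeq2 without the block.

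The 15 raised features with the largest log2 fold changes were mostly close to the detection limit. Gm4312 had 1, 0 and 1 counts in Ctrl and 18, 17 and 16 in dPOLE4 MCM2-2A, a ratio of 24.2 (exact Poisson interval from 6.38 to 206 at 95%, counting error only), and all its windows occur in other genes. Gm21293 and Gm6763, which overlap on chromosome 10, had identical counts (0, 0 and 4 in Ctrl against 11, 12 and 9). LTR16A1 rested on 1 library: it was at 1.14, 1.88 and 1.65 CPM in Ctrl and at 2.47, 24.1 and 1.71 CPM in dPOLE4 MCM2-2A, and it was not called without replicate 2, where its log2 fold change was 0.48. Slc34a2, a sodium-dependent phosphate transporter, had 2, 6 and 7 counts in Ctrl and 24, 26 and 18 in dPOLE4 MCM2-2A. Phf11a, a PHD finger gene, had 0, 5 and 6 counts in Ctrl and 20, 18 and 18 in dPOLE4 MCM2-2A.

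The lowered genes included genes of formative pluripotency, among them transcription factors. Of 16 tested genes of this list, 5 were DE and lower, 13 had a lower mean, and the median log2 fold change was -0.46. Without the block 2 of the 16 were called, and DESeq2 without the block called 4. Lef1, a nuclear effector of the Wnt pathway, was at 20.1, 21.8 and 17.3 CPM in Ctrl and at 8.12, 8.04 and 6.42 CPM in dPOLE4 MCM2-2A. It fell by 1.39 ± 0.107 on the log2 scale (edgeR, adjusted p = 1.59e-09, and 0.00251 without the block), the largest fall in the list. Pou3f1, which marks the exit from naive pluripotency, was at 32.2, 39.2 and 34.0 CPM in Ctrl and at 20.9, 21.5 and 20.4 CPM in dPOLE4 MCM2-2A (log2 fold change -0.76 ± 0.076; edgeR, adjusted p = 1.34e-07, and 0.00958 without the block). For both genes every dPOLE4 library lay below every Ctrl library.

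Fgf5, a growth factor of the formative state, fell by 1.05 (edgeR, adjusted p = 0.00535), at about 3 CPM in Ctrl (2.99, 3.07 and 2.87), and was not called when any replicate number was left out. Zic2 fell by 0.68 and Zic5, its neighbour on chromosome 14, by 0.58, both zinc finger genes of early neural and epiblast cells. Neither was called by edgeR without the block (adjusted p = 0.0244 and 0.0593), and Zic5 stood at the fold cutoff. Otx2, the homeobox gene that drives cells towards the formative state, was at 32.2, 28.9 and 28.0 CPM in Ctrl and at 20.2, 16.7 and 22.9 CPM in dPOLE4 MCM2-2A. Its log2 fold change was -0.58 (edgeR, adjusted p = 7.13e-05), just inside the cutoff, so that it was not DE. Dnmt3b, a de novo DNA methyltransferase, had a log2 fold change of -0.48 and the keratin gene Krt18 one of 0.53, and neither was DE. None of 17 naive genes was DE, with a median of 0.063, and none of 10 core pluripotency genes, with a median of -0.18.

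Mycn, a Myc family transcription factor of embryonic cells, was at 250, 259 and 223 CPM in Ctrl and at 133, 130 and 138 CPM in dPOLE4 MCM2-2A. It fell by 0.87 ± 0.049 on the log2 scale (edgeR, adjusted p = 6.01e-12, and 0.00197 without the block), with no overlap between groups. Its relative Myc was at -0.18 (edgeR, adjusted p = 0.00533) and Mycl at -0.05, and neither was DE. In the Wnt list 3 of 48 tested genes were lower and 1 was higher. Besides Lef1 these were Sp5, a Wnt target transcription factor (-1.15), and the ligand Wnt8a (-0.65, with overlapping groups), while the ligand Wnt6 rose (0.89). Lef1 was the one called without the block. Sp5, at 2.42, 3.82 and 3.77 CPM in Ctrl, was not called without replicate 2 or 3, and Wnt8a not without replicate 1 or 3. In the Nodal list 1 of 17 was DE, the Nodal antagonist Lefty1, at 87.9, 98.9 and 76.2 CPM in Ctrl and 59.2, 54.5 and 52.9 CPM in dPOLE4 MCM2-2A (log2 fold change -0.66; edgeR, adjusted p = 3.65e-08, and 0.0167 without the block). Without replicate 2 Lefty1 was not called, at a log2 fold change of -0.55. In the FGF list 2 of 31 were DE, Fgf5 lower and Fgf1 higher (1.42), and none was called by edgeR without the block (adjusted p = 0.0531 and 0.0228).

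**Figure D2:**
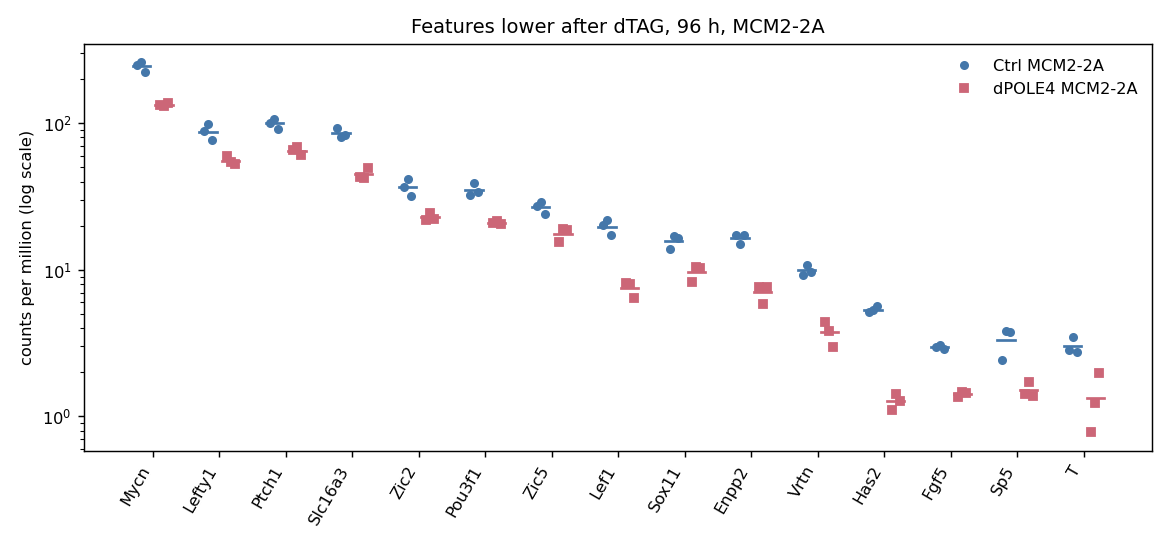
CPM (log scale) of lowered genes in each of the 3 Ctrl MCM2-2A and 3 dPOLE4 MCM2-2A libraries at 96 h, with 1 point per library. Lef1 spans 17.3 to 21.8 in Ctrl and 6.42 to 8.12 in dPOLE4, and Mycn 223 to 259 and 130 to 138.

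Cyp2j13, of the cytochrome P450 family, and Has2, which makes the matrix polysaccharide hyaluronan, had the steepest falls, with Cyp2j13 at 44 counts over the 3 Ctrl libraries and not tested without replicate 2. Has2 was at 5.13, 5.32 and 5.63 CPM in Ctrl and at 1.10, 1.42 and 1.28 CPM in dPOLE4 MCM2-2A (log2 fold change -2.06 ± 0.222; edgeR, adjusted p = 4.08e-07, and 0.00241 without the block). Enpp2, the enzyme that makes lysophosphatidic acid, was at 17.4, 15.1 and 17.3 CPM in Ctrl and at 7.60, 5.85 and 7.62 CPM in dPOLE4 MCM2-2A (log2 fold change -1.25 ± 0.113; edgeR, adjusted p = 2.47e-08). Both were separated in every library. Vrtn, a gene linked to vertebra number, fell by 1.42, the zinc finger gene Zfp608 by 1.59 and Gna14, a G protein subunit gene, by 1.64. Of these 3, all but Gna14 (edgeR, adjusted p = 0.0409) were also called without the block. Srp54b (-1.61) and Rnu3b4 (-1.29) had overlapping groups, and were not called without replicate 2 and without replicate 3, respectively.

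Further lowered genes with many reads were named after their values were seen. Slc16a3, a lactate exporter, was at 92.0, 81.0 and 83.5 CPM in Ctrl and at 42.6, 42.1 and 49.8 CPM in dPOLE4 MCM2-2A (log2 fold change -0.93; edgeR, adjusted p = 1.79e-10, and 0.00251 without the block). The carbonic anhydrase gene Car2 fell by 0.81, the kinase gene Pim2 by 0.85 and Ptch1, the Hedgehog receptor, by 0.62, each with no overlap between groups and called with and without the block. Among genes that mark cells after lineage choice, the mesoderm gene T fell by 1.20 (edgeR, adjusted p = 0.00435) at 2.85, 3.50 and 2.76 CPM in Ctrl, and was not called without replicate 1 or 2. The neural gene Sox11 fell by 0.69 (edgeR, adjusted p = 5.53e-05). Neither T nor Sox11 was called by edgeR without the block (adjusted p = 0.122 and 0.0493). T was the 1 DE gene of 7 mesoderm markers tested, of which 5 had a lower and 2 a higher mean, with a median log2 fold change of -0.095. Sox11 was the 1 DE gene of 7 neural markers tested, of which 6 had a lower mean, with a median of -0.22.

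Clustered histone genes, which encode the histones made in S phase, had lower means almost throughout. Of 61 core histone genes tested of 63, 59 had a lower mean, against 50.1% of all features, and 6 were DE and lower. Without the block 1 of the 61 was called, Hist3h2ba, and DESeq2 without the block called 4. The median log2 fold change was -0.31, and 40 of the 61 had Ctrl and dPOLE4 libraries that did not overlap, against the 7.67% given above. All 6 linker histone H1 genes had a lower mean, with a median of -0.38, and 1 was DE, which neither edgeR nor DESeq2 called without the block. By kind, 18 of 18 H2A genes (3 DE), 16 of 17 H2B genes (3 DE), 11 of 12 H3 genes (0 DE) and 13 of 13 H4 genes (0 DE) were lower, with medians between -0.36 for H2B and -0.24 for H3. The summed level of the core histone genes was 5448 ± 201 CPM in Ctrl and 4492 ± 178 CPM in dPOLE4 MCM2-2A. Core and linker histones together took 0.669 ± 0.0312% and 0.557 ± 0.0233% of counts (exact permutation test, p = 0.1, the smallest possible).

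The DE histone genes were mainly members expressed in germ cells or outside the large clusters. Hist1h2ba, the testis H2B gene, was at 8.69, 9.07 and 7.54 CPM in Ctrl and at 4.16, 2.48 and 3.42 CPM in dPOLE4 MCM2-2A (log2 fold change -1.37 ± 0.170; edgeR, adjusted p = 3.17e-06, and 0.0145 without the block). Hist1h2aa, the H2A gene beside it, was at 10.7, 12.3 and 11.2 CPM in Ctrl and at 6.50, 6.09 and 3.85 CPM in dPOLE4 MCM2-2A (log2 fold change -1.07 ± 0.141; edgeR, adjusted p = 7.67e-06, and 0.0318 without the block). In both, each dPOLE4 library was below each Ctrl library. Hist1h1t, the testis H1 gene, fell by 1.32 (edgeR, adjusted p = 0.00127, and 0.0468 without the block) and was not called by DESeq2 without the block (adjusted p = 0.0354).

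The 2 genes Hist1h2aa and Hist1h2ba are transcribed away from each other and have 280 bases between their RefSeq starts on chromosome 13 (23934437 and 23934156, GRCm38.p6), so the window before Hist1h2aa, shown on its own strand, covers most of the promoter of both. Capitals mark TATAAA (2 matches), CCAAT (4 matches) and the octamer ATTTGCAT (1 match), each searched on both strands, so that a match on the other strand is capitalised as its reverse complement.
Hist1h2aa (chr13:23934187-23934436, plus strand): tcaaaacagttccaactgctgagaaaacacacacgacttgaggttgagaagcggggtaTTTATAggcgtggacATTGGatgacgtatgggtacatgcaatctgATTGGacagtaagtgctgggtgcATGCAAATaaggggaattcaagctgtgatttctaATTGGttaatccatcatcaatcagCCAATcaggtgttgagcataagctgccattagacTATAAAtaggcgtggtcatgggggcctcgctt

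Of 32817 RefSeq promoters of this length, 12.4% hold TATAAA, 33.8% CCAAT and 1.6% the octamer. The octamer and CCAAT are known elements of histone promoters.

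On chromosome 11, the 3 neighbours Hist3h2ba, Hist3h2a and the pseudogene Hist3h2bb-ps were DE and lower. Hist3h2ba was at 27.3, 23.6 and 27.2 CPM in Ctrl and at 15.2, 10.6 and 11.6 CPM in dPOLE4 MCM2-2A (log2 fold change -1.08 ± 0.095; edgeR, adjusted p = 1.7e-08, and 0.00938 without the block). Hist3h2a fell by 0.74 and Hist3h2bb-ps by 1.22, neither called by edgeR without the block (adjusted p = 0.011 and 0.0905). Trim17, which starts at the same base as Hist3h2a in the annotation, fell by 0.72 (edgeR, adjusted p = 0.0109 without the block), and reads of the overlap cannot be told apart between them. Hist2h2aa2 (-0.82) and Hist1h2bq (-0.78) share 100% and 94.8% of their windows with other genes, so that their own values are uncertain, and the groups overlapped for Hist1h2bq. Neither was called by edgeR without the block (adjusted p = 0.192 and 0.371). The replacement histone genes, expressed throughout the cell cycle, had none DE of 10. Their log2 fold changes ran from -0.56 to 0.12, with a median of -0.025, 6 lower and 4 higher. At an unadjusted p under 0.05 in edgeR, 3 were lower and 1 was higher. Those the study names were at -0.05 for H3f3a, 0.01 for H3f3b and about 0 for Cenpa (edgeR, adjusted p = 0.993). None of 50 DNA replication genes, 20 cell cycle genes or 25 histone chaperone genes was DE, with medians of -0.030, -0.0095 and -0.062.

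**Figure D3:**
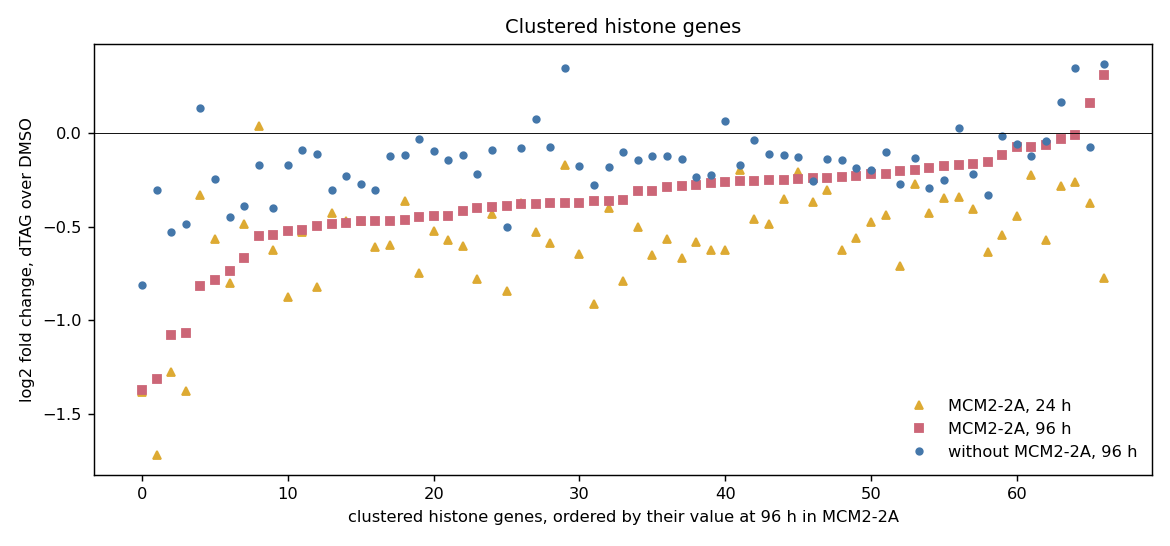
Log2 fold change of dTAG over DMSO for 67 clustered histone genes, ordered along the x axis by their value at 96 h in the MCM2-2A line (squares), with the same genes at 24 h in the MCM2-2A line (triangles) and at 96 h in the line without MCM2-2A (circles). Of the 67, 2 lie above 0 at 96 h in the MCM2-2A line.

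Few other repeats were DE. Of 837 repeat subfamilies 7 were DE (0.836%), and 539 had a higher mean, with a median log2 fold change of 0.062. None of 136 LINE and none of 34 SINE subfamilies was DE, although 32 of the SINE subfamilies were higher. The total share of counts on repeats was 8.08 ± 0.398% in Ctrl and 8.50 ± 0.480% in dPOLE4 MCM2-2A (exact permutation test, p = 0.4). GSAT_MM, the major satellite of pericentromeric chromatin, was at 7.83, 18.6 and 17.9 CPM in Ctrl and at 17.4, 35.3 and 32.8 CPM in dPOLE4 MCM2-2A, so that the groups overlapped while each pair rose. It was DE with the block (log2 fold change 0.94; edgeR, adjusted p = 2.84e-08) and not without it (adjusted p = 0.27). RLTR6B_Mm rose by 0.75 and MLT1G by 0.71, with overlapping groups for MLT1G, and neither was called by edgeR without the block (adjusted p = 0.0493 and 0.594).

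MMERGLN-int, the internal part of a gammaretrovirus-like element, was the 1 repeat that fell. It was at 336, 406 and 352 CPM in Ctrl and at 230, 245 and 212 CPM in dPOLE4 MCM2-2A (log2 fold change -0.67 ± 0.044; edgeR, adjusted p = 1.07e-10, and 0.00816 without the block). No dPOLE4 library reached the lowest Ctrl library.

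**Figure D4:**
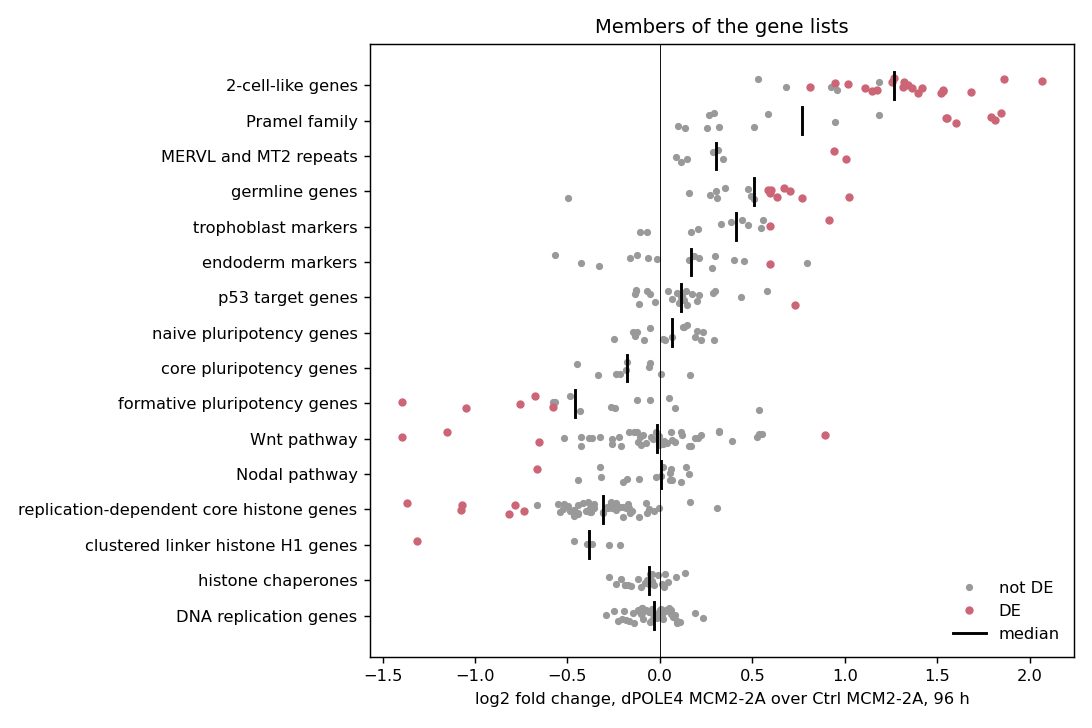
Log2 fold change at 96 h of each tested member of the gene lists named on the y axis, with DE members coloured, others grey and the list's median as a black bar. The medians run from 1.27 for the 2-cell-like genes to -0.46 for the formative genes.

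Markers of other cells were examined as whole lists. Of 12 tested trophoblast markers 2 were DE and higher, Hand1 (0.92) and Gata2 (0.59), 10 had a higher mean, and the median was 0.41. Without the block edgeR called neither (adjusted p = 0.017 for Hand1 and 0.236 for Gata2). DESeq2 without the block called Hand1 and not Gata2, and Gata2 was not called without replicate 1 or without replicate 2. Their summed level was 238 to 300 CPM in Ctrl and 302 to 356 CPM in dPOLE4 MCM2-2A, and the placental hormone gene Prl3d1 was at 0 in all libraries. Of 16 endoderm markers 1 was DE, Amn (0.60; edgeR, adjusted p = 0.122 without the block), with summed levels of 857 to 904 CPM and 917 to 979 CPM. Summed mesoderm markers were at 41.2 to 48.1 CPM in Ctrl against 37.6 to 45.5 CPM in dPOLE4 MCM2-2A, neural markers at 189 to 225 CPM against 187 to 221 CPM, and fibroblast markers at 34.6 to 47.9 CPM against 44.5 to 59.4 CPM. The part of these cells in the results above was not tested.

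A comparison with 24 h asked how the effects of dTAG at 96 h differed from those at 24 h. The 24 h libraries of the same line were deposited as a separate set, so the effects of dTAG, and not the levels, were compared. Time and set of libraries coincide, so an effect of time cannot be told apart from a difference between the sets. At 24 h, 143 features were DE (0.787% of 18171), 86 up (0.473%) and 57 down (0.314%). Of the features tested at both times, 25 were DE in both in the same direction and 0 in opposite directions, which is 8.50% of the 294 DE at 96 h and 18.0% of the 139 DE at 24 h. A test of the difference called 55 features of 18406 (0.299%), 34 with a higher (0.185%) and 21 with a lower effect (0.114%) at 96 h.

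MERVL-int had the lowest p of this test. At 24 h it was at 993, 859 and 1263 CPM in Ctrl and at 894, 735 and 1146 CPM with dTAG. The groups overlapped, and its log2 fold change was -0.18 beside 1.01 at 96 h. The difference was 1.18 ± 0.064 (edgeR, adjusted p = 9.8e-10, and 0.33 without the block). MT2_Mm had a log2 fold change of -0.25 at 24 h and a difference of 1.19. Of the 2-cell-like genes, 12 differed between the times, with a median of 0.043 over the 24 tested at 24 h; Zscan4c had a log2 fold change of 0.12 and Usp17le one of 0.34. Has2 had a log2 fold change of -0.18 at 24 h (difference -1.89; edgeR, adjusted p = 0.00193).

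Lef1 had a log2 fold change of -1.44 at 24 h, and its difference between the times was 0.04 ± 0.152 (edgeR, adjusted p = 0.968). Hist1h2ba (-1.38 at 24 h), Hist3h2ba (-1.28), Zic2 (-0.76) and MMERGLN-int (-0.65) were also DE at both times. The core histone genes had a median of -0.53 at 24 h beside -0.31 at 96 h, with a median difference of 0.19. In the test of the difference 1 of them was called, Hist1h2br (1.08), with effects of -0.78 at 24 h and 0.31 at 96 h. Its groups overlapped at 96 h, at 58.7, 43.1 and 52.7 CPM in Ctrl and 92.8, 40.1 and 68.4 CPM in dPOLE4. It was not called without replicate 1 or 3, and its share of windows in other genes was not counted. Pou3f1 had a log2 fold change of -0.22 at 24 h (difference -0.54; edgeR, adjusted p = 0.00858) and Mycn one of -0.33 (difference -0.55; adjusted p = 0.000651), both under the fold cutoff for a difference. Prtg, a cell surface receptor of early embryos, was at 0.11 at 24 h and -0.73 at 96 h (difference -0.85; edgeR, adjusted p = 7.35e-05). Without the block the difference test called 0 features, with 853 at an unadjusted p under 0.05, and DESeq2 with the block called 29.

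A comparison with the line without MCM2-2A, treated for the same 96 h, asked which effects of dTAG differed between the lines. The lines were tagged and cloned separately, so the MCM2 mutation and other differences between them cannot be told apart. In that line 142 features were DE (0.808% of 17580), 79 up (0.449%) and 63 down (0.358%). Over the features tested in both lines, 55 were DE in both in the same direction and 0 in opposite directions, 19% of the 288 in MCM2-2A and 40.7% of the 135 in the other line. The 2-cell-like genes had a median of 0.68 over the 23 tested there, beside 1.27, and none of them was called in the test of the difference; Zscan4c had a log2 fold change of 0.66 (edgeR, adjusted p of the difference = 0.0482) and Usp17le one of 0.71 (adjusted p = 0.0173). Has2 (-1.56), Vrtn (-1.31), Enpp2 (-1.28), Pou3f1 (-0.76) and Lef1 (-0.92) were DE in both lines.

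The test of the difference between lines called 10 features of 18555 (0.0539%), 5 with a higher and 5 with a lower effect in MCM2-2A (0.0269% each). MERVL-int rose by 0.31 in the line without MCM2-2A, from 846, 779 and 810 CPM to 1162, 1083 and 793 CPM, where replicate 3 did not rise (difference 0.70 ± 0.092; edgeR, adjusted p = 0.000429). MT2_Mm had a log2 fold change of 0.25 there (difference 0.69). MMERGLN-int differed in direction: in the line without MCM2-2A it was at 133, 152 and 139 CPM in Ctrl and at 151, 212 and 153 CPM in dPOLE4, a log2 fold change of 0.28 beside -0.67 (difference -0.94 ± 0.079; edgeR, adjusted p = 6.74e-07). Krt18 and Flnc, genes of the cytoskeleton, were higher in MCM2-2A (0.53 and 0.33) and lower in the other line (-0.14 and -0.27), with differences of 0.69 and 0.61. Hist2h2aa2 fell in MCM2-2A (-0.82 beside 0.13). Without the block this test called 0 features, with 686 at an unadjusted p under 0.05, and DESeq2 with the block called 4 (Flnc, Krt18, MMERGLN-int and MT2_Mm).

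**Figure D5:**
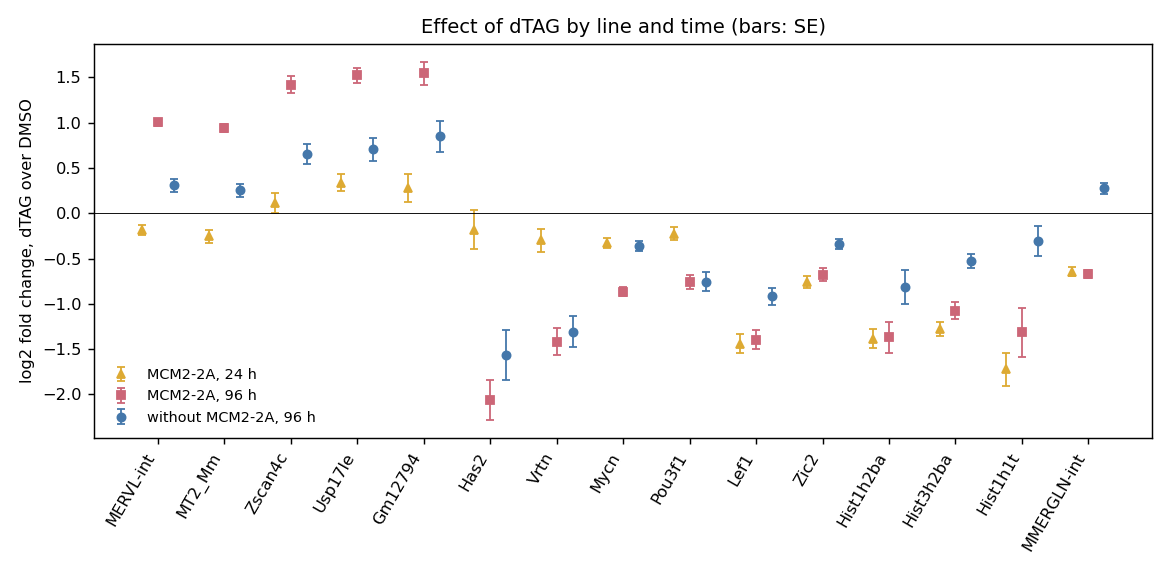
Log2 fold change of dTAG over DMSO with its SE (bars) for 15 named features at 96 h in the MCM2-2A line, at 24 h in the MCM2-2A line and at 96 h in the line without MCM2-2A. MERVL-int lies at 1.01, -0.18 and 0.31, Lef1 at -1.39, -1.44 and -0.92, and MMERGLN-int at -0.67, -0.65 and 0.28.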

How the data were processed

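RNA-seq of the 6 libraries was deposited as raw counts per gene and per repeat subfamily, not normalized and with replicates not pooled. Per the labels and the study's methods, the authors trimmed reads with cutadapt 4.2, aligned them with STAR to mm10 keeping multiple alignments, and made these counts with TEcount. Symbols and positions came from GENCODE M21, which matched 55227 of 55487 gene IDs. All columns used were matched to samples by name.

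Counts were fitted in R 4.3.3 with edgeR 4.0.16 (filterByExpr with a minimum count of 10 and a minimum total of 15, TMM over genes and repeats together, quasi-likelihood F test, Benjamini-Hochberg over all tested features). CPM are counts per TMM-scaled library total. The replicate number was a block because the comparison was defined that way. Deviations from the group mean correlated at r = 0.373, 0.320 and 0.128 between Ctrl and dPOLE4 libraries of the same number. Between libraries of different numbers r lay from -0.352 to 0.0791. Deviations from a group mean cancel out within the group, so these values are not independent of each other. Differences of effects were tested in 1 fit over 12 libraries with each Ctrl and dPOLE4 pair as a block. The procedure was tested on simulated data. DESeq2 1.42.0, the tool of the study, other scalings, filters and thresholds, and leaving out replicates were alternatives. Shares of counts were compared by two-sided exact permutation. A log2 fold change of a gene with few counts depends on edgeR's prior count, and depth limits such genes.

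Members and lists were chosen with earlier results of these data known. Named are Pole4 and Mcm2, DE members of the lists (or up to 4 others of a list with few), the 15 DE features with the largest change in each direction and the same sign in all pairs, genes the study names for these cells, and up to 5 features per direction of each difference test. Other named genes are marked as such. Values of some single genes are left out.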

Additional observations from a re-analysis of the deposited data

Results flagged for a closer look

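The effect of dTAG at 96 h differed between the MCM2-2A line and the line without MCM2-2A for 10 features, by edgeR's test of the difference with each pair as a block. Differences are on the log2 scale, MCM2-2A minus the other line. They were 0.70 for MERVL-int, 0.69 for MT2_Mm, 0.69 for Krt18, 0.61 for Flnc, -0.94 for MMERGLN-int and -0.94 for Hist2h2aa2. MMERGLN-int, MT2_Mm, Krt18 and MERVL-int were called with each replicate of the MCM2-2A line left out, Flnc not without replicate 2, and Hist2h2aa2, which shares all its windows with other genes, not without replicate 1.

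The other 4 rest on few libraries. Tmem254b (-13.21) was at 0 in 9 of 12 libraries, with 1.53 and 2.36 CPM in Ctrl MCM2-2A replicates 1 and 2 and 1.20 CPM in dPOLE4 replicate 2 of the other line. Gm10259 (11.98) was at 0 in 7 of 12 libraries and at 18.5 CPM in dPOLE4 MCM2-2A replicate 1. Mir6236 (-2.90) and Gm24270 (-2.16) were high in replicate 2 of several groups, at 179 and 55.7 CPM in Ctrl MCM2-2A replicate 2 against at most 0.314 CPM in replicates 1 and 3 of that group.

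Between 96 h and 24 h in the MCM2-2A line, the effect of dTAG differed for 55 features. Time and set of libraries cannot be told apart there. Among the 55 was mt-Atp6 of the mitochondrial genome (difference 0.93), whose level spanned 260 to 629 CPM within Ctrl MCM2-2A at 96 h.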

How the results depend on the processing

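In the comparison at 96 h, 307 features were called (218 up, 89 down). Without the replicate block edgeR called 53 (34 and 19), all of them among the 307. DESeq2 called 128 with the block (88 and 40) and 125 without (90 and 35). With no fold cutoff the count was 1265 (599 and 666), and with glmTreat against a 1.5-fold change 64 (52 and 12). Without Ctrl MCM2-2A replicate 1, the library with the fewest counts, and without the block, an alternative chosen after seeing the data, it was 59 (43 and 16). Leaving out each replicate number gave 283 to 310. The count stayed between 246 and 407 with DESeq2 size factors (310), TMM from genes only (307), unfiltered features (407), at least 10 counts in every library (246), robust estimation (353) and all 4 groups in the fit (282).

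For the difference between lines, 10 with the block, the count was 0 without it (686 at an unadjusted p under 0.05 in edgeR), 6 with at least 10 counts in every library, 4 with DESeq2, and 6 to 20 with a replicate left out. For the difference between times, 55 with the block, it was 0 without it (853 at an unadjusted p under 0.05 in edgeR), 29 with DESeq2 and 18 to 28 with a replicate left out. The cause of these changes was not tested.

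Values near 0 changed sign. Cenpa was at 0.0035 without the block, 0.0014 without a filter, 0.0031 with at least 10 counts in every library, 0.017 without Ctrl MCM2-2A replicate 1 and the block, and between -0.026 and 0.034 with a replicate left out. H3f3a was at 0.0026 without Ctrl MCM2-2A replicate 1 and the block. With a replicate left out, Mcm2 lay between -0.093 and 0.0076 and H3f3b between -0.021 and 0.049. Of 101 named features, 68 were no longer called without the block, 31 with DESeq2 without it, and 17 to 21 with a replicate left out.

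A list's median moved by over 1.5 times for the Pramel family, to 0.32 with at least 10 counts in every library and to 1.15 without replicate 3. Counting error is largest in Ctrl MCM2-2A replicate 1, with 7126100 counts, and genes under about 1 CPM there rest on few reads.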

Other observations

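Further lists had few DE members. Of 25 p53 target genes tested, 1 was DE, the apoptosis gene Pmaip1, at 36.5, 25.1 and 27.4 CPM in Ctrl and 57.9, 43.4 and 45.3 CPM in dPOLE4 MCM2-2A (log2 fold change 0.73; edgeR, adjusted p = 2.28e-08, and 0.0535 without the block), with a list median of 0.12. The p53 target Btg2, an antiproliferative gene, had a log2 fold change of 0.44 at 96 h beside 0.74 at 24 h, and was not DE at 96 h. Of 24 imprinted genes, 1 was DE, Zim1 (0.90), which was not called when any replicate number was left out. Of 4 Kdm4 family genes, 1 was DE, the unprocessed pseudogene Kdm4dl, at 1.57, 1.75 and 1.97 CPM in Ctrl and 6.30, 6.21 and 5.74 CPM in dPOLE4 MCM2-2A (log2 fold change 1.75; edgeR, adjusted p = 8.77e-07, and 0.00251 without the block).

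No member was DE among 26 genes of H3K9 and DNA methylation silencing (23 with a lower mean, median -0.12), 21 Polycomb and H3K27 genes (median -0.097), 11 integrated stress response genes (median -0.057), 8 interferon response genes (median 0.12), 23 hypoxia and glycolysis genes (median -0.086), 18 cholesterol synthesis genes (median -0.028), 16 adhesion genes (median 0.10), 13 genes of the mitochondrial genome (median 0.14) and 5 fibroblast markers (median 0.069). Itgb4, an integrin of the adhesion list, stood at the fold cutoff with a log2 fold change of 0.58, at 33.5, 40.5 and 39.9 CPM in Ctrl and 44.0, 64.4 and 60.8 CPM in dPOLE4 MCM2-2A, and was called without replicate 1.

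SINE elements took 2.97 ± 0.0654% of counts in Ctrl and 3.19 ± 0.176% in dPOLE4 MCM2-2A (exact permutation test, p = 0.1, the smallest possible), LINE elements 1.20 ± 0.0963% and 1.30 ± 0.156% (p = 0.5), and LTR elements 1.80 ± 0.180% and 1.82 ± 0.186% (p = 0.6).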
